A study of Mus musculus with 15 samples.

Results

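The IFIT genes encode interferon-induced proteins with tetratricopeptide repeats, and the 4 genes described here are Ifit1, Ifit2, Ifit3 and Ifit3b, all found by gene symbol among the 34432 genes listed in the deposited count tables. Ifit3 and Ifit3b are near-identical copies, so the sum of their values is given beside each of them. CT26 is a mouse colon carcinoma line, and RNA-sequencing was available for 15 libraries in 5 groups of 3, which the submitters described as biological replicates. In the knockdown experiment, cells labelled as control knockdown (shControl) were set against cells carrying a tet-on hairpin to Prmt1 (shPrmt1), which the study treated with doxycycline for 3 days before RNA-sequencing. Whether doxycycline was also given to shControl cells is not stated in the labels. In the inhibitor experiment, cells of WT genotype were given vehicle, MS023 or GSK3368715, both inhibitors of type I protein arginine methyltransferases that the study used at 6 µM for 48 hours. The question behind each comparison was how loss or inhibition of PRMT1, the enzyme that makes most asymmetric dimethylarginine in cells, altered gene expression in the tumour cells.

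IFIT proteins have no enzymatic activity of their own. They bind RNA or other proteins through arrays of helical repeats, and Ifit1 holds back translation of RNA whose cap lacks the ribose methylation that marks host messages. In most cells the genes are low until type I or type III interferon, or a viral nucleic acid sensor acting through IRF3, turns them on. Interferon does so through transcription factors, STAT2 and IRF9 among them, that bind a DNA element named ISRE.

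All 4 genes lie on the plus strand of chromosome 19 in mm10, within 99.3 kb. Ifit2 comes first (34550694 to 34576419), followed by Ifit3 (34583531 to 34588731), Ifit3b (34607970 to 34613401) and Ifit1 (34640871 to 34650009). A pair of further family genes, Ifit1bl1 (34592891 to 34601956) and Ifit1bl2 (34617049 to 34640743), sits among them on the minus strand. The annotated starts of Ifit1bl2 and Ifit1 are 127 bp apart, head to head.

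The bases in front of the start sites are shown because they hold the ISRE core, searched here on both strands as GAAA, any 2 bases and GAAA again, and set in capitals. RefSeq windows on GRCm38.p6, each running from 250 bases before to 50 bases after a start, were matched for all 6 family genes. The stretches of Ifit1, Ifit3 and Ifit3b run from 20 bases before the first match to 20 bases after the last. Ifit2 had no match, and its stretch covers the same distance from the start as that of Ifit3. All are written 5′ to 3′ on the plus strand, at chr19:34640765-34640833, chr19:34583353-34583436, chr19:34607749-34607832 and chr19:34550518-34550601.
Ifit1: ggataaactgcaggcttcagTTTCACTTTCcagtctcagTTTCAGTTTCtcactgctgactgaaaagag
Ifit3: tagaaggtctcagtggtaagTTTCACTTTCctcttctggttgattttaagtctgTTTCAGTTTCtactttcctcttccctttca
Ifit3b: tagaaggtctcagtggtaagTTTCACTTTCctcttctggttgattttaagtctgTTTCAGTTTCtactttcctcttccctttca
Ifit2: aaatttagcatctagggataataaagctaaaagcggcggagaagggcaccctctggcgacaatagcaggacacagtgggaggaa

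The windows of Ifit1, Ifit3 and Ifit3b each held 2 ISRE core matches, whereas 0.225% of the 32851 windows in the table held 2 or more and 3.44% held any. In all 3 genes the pair read TTTCACTTTC and then TTTCAGTTTC, that is, the core on the minus strand. The first match began 104 bases before the start of Ifit1, 156 bases before that of Ifit3 and 188 bases before that of Ifit3b. The 2 matches of Ifit1 are the same bases as the 2 found for Ifit1bl2 from the other strand. At Ifit1bl1, both windows held 1 core match each. Whether core matches go with the changes below was not tested. Neither of the RefSeq windows of Ifit2 held the core, which says only that these letters are not in those windows. One of them held a GAS match (TTCNNNGAA, in 8.3% of all windows), 241 bases before the start. None of the 4 genes held TATAAA, which stood in 13.6% of windows on either strand.

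Ifit3 and Ifit3b resembled each other in front of the start as well as within the message. Over the 274 aligned columns of their windows, 94.2% were identical. Their coding sequences, of 1209 bases each, differed at 11 bases and were 99.1% identical. The stretch of 60 coding bases with the most differences, from base 229 to base 288 counted from the start codon, is shown because it marks how little sequence can separate the copies, with the differing bases in capitals.
Ifit3: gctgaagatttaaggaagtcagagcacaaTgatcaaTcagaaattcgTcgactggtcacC
Ifit3b: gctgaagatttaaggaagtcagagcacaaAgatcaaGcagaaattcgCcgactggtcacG

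Of the 31-base words in the longest Ifit3 transcript, 61.8% also occurred in Ifit3b, and of those in Ifit3b, 53.8% occurred in Ifit3. Counting all other genes, 55.5% of the Ifit3b words occurred elsewhere, in 2787 genes. The authors' quantifier splits such shared reads by estimate, so the separate values of the 2 genes are uncertain. Their sum is the firmer measure as to the split between them, but not as to words shared with further genes. Ifit2 had no word in common with any other gene, and 89.0% of the words of Ifit1 were its own. The coding sequences of Ifit1 and Ifit2 were 55.7% identical, and those of Ifit1 and Ifit3 50.9%.

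The libraries held 17284091 to 29233738 reads in the knockdown table and 40119305 to 93697833 in the inhibitor table. Values below are read counts normalized by the authors within each table, so the tables were tested separately. Prmt1 checked the labels of the knockdown. It fell from between 5601 and 5717 normalized counts in shControl to between 669 and 761 in shPrmt1. Of 11 colon epithelium markers, Epcam was at 0 in every library, and 2 in the knockdown table and 4 in the inhibitor table averaged 10 normalized counts or more, Krt18 and Krt20 among them. The summed level of the 11 was 724 to 813 normalized counts in shControl and 541 to 661 in shPrmt1, lower without overlap. This fall was mainly that of Krt18, at 555 to 605 in shControl and 378 to 462 in shPrmt1, whereas Krt20 overlapped. The sum of the 11 was 1251 to 1420 with vehicle and 1762 to 1857 with MS023, higher without overlap. With GSK3368715 it was 1412 to 1609, which overlapped vehicle. Of the 7 leukocyte markers, only Cd68 averaged 10 normalized counts or more, and Ptprc stayed near 0. The summed level of the 7 overlapped between treated and control libraries in each comparison. Of the 4 fibroblast markers, 3 in the knockdown table and all 4 in the inhibitor table passed that level. Their sum was 140538 to 141681 normalized counts with vehicle, 107358 to 127692 with MS023 and 128845 to 138134 with GSK3368715, lower without overlap. On knockdown the sum, most of it Col1a2, overlapped. Col1a1 by itself was higher there without overlap, at 1853 to 2321 in shControl and 3067 to 4890 in shPrmt1. Col1a2 and Pdgfra overlapped. The pair of endothelial markers summed to 11.5 to 12.3 in shControl and 2.42 to 8 in shPrmt1, and overlapped in the inhibitor table. The part of these shifts in the results below was not tested. In bulk RNA, fewer cells expressing a gene and less RNA per cell cannot be told apart.

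Ifit1 was higher in shPrmt1 cells than in shControl cells. Its normalized count was 563, 529 and 589 in the shControl libraries 1, 2 and 3, and 920, 1228 and 1096 in the shPrmt1 libraries. Every shPrmt1 library stood above every shControl library, and shPrmt1 1 was the lowest of its group. The means were 560 ± 30.1 and 1081 ± 154 (SD, n = 3 each). The log2 fold change, computed as all others here on log2(normalized count + 1), was 0.94 (95% confidence interval 0.69 to 1.19, adjusted p = 0.00135, limma).

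Ifit3, whose product in human cells steadies IFIT1 on RNA, was read at a far lower level in this experiment. It had 39.6, 41.8 and 55.3 normalized counts in shControl and 96.0, 118 and 99.0 in shPrmt1. The groups did not overlap, and the log2 fold change was 1.19 (0.77 to 1.61, adjusted p = 0.00481, limma). Ifit3b had 47.5, 29.5 and 44.2 normalized counts in shControl and 56.0, 80.0 and 91.9 in shPrmt1. Here too the groups did not overlap, with shPrmt1 1 close to the highest control. The log2 fold change of Ifit3b was 0.89 (0.31 to 1.48), and it missed the threshold of 0.05 (adjusted p = 0.0511, limma).

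Summed, the copies had 87.2, 71.3 and 99.5 normalized counts in shControl and 152, 198 and 191 in shPrmt1. The sum rose by a log2 fold change of 1.06 (0.68 to 1.45, adjusted p = 0.00526, limma), again with no overlap. These levels rested on 288 reads in the 3 shControl libraries together and on 483 in the shPrmt1 libraries.

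Ifit2, whose product has been linked to apoptosis as well as to antiviral defence, did not pass the test. It had 703, 741 and 710 normalized counts in shControl and 752, 984 and 735 in shPrmt1. The groups overlapped, since shControl 2 lay above shPrmt1 3, and the single high value was shPrmt1 2. The log2 fold change was 0.19 (-0.08 to 0.45, adjusted p = 0.309, limma), an interval that excludes a doubling.

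In all, 2 of the 4 IFIT genes were called higher on Prmt1 knockdown and none lower, while 7.5% of the 11485 genes tested were called higher and 7.17% lower. Of the 4, 3 had groups that did not overlap, in the direction of the knockdown, as had 19.2% of all genes. Their median log2 fold change was 0.92, against -0.0036 over all genes. Ifit3 and Ifit3b share much sequence, so they are not independent members of these counts.

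**Figure D1:**
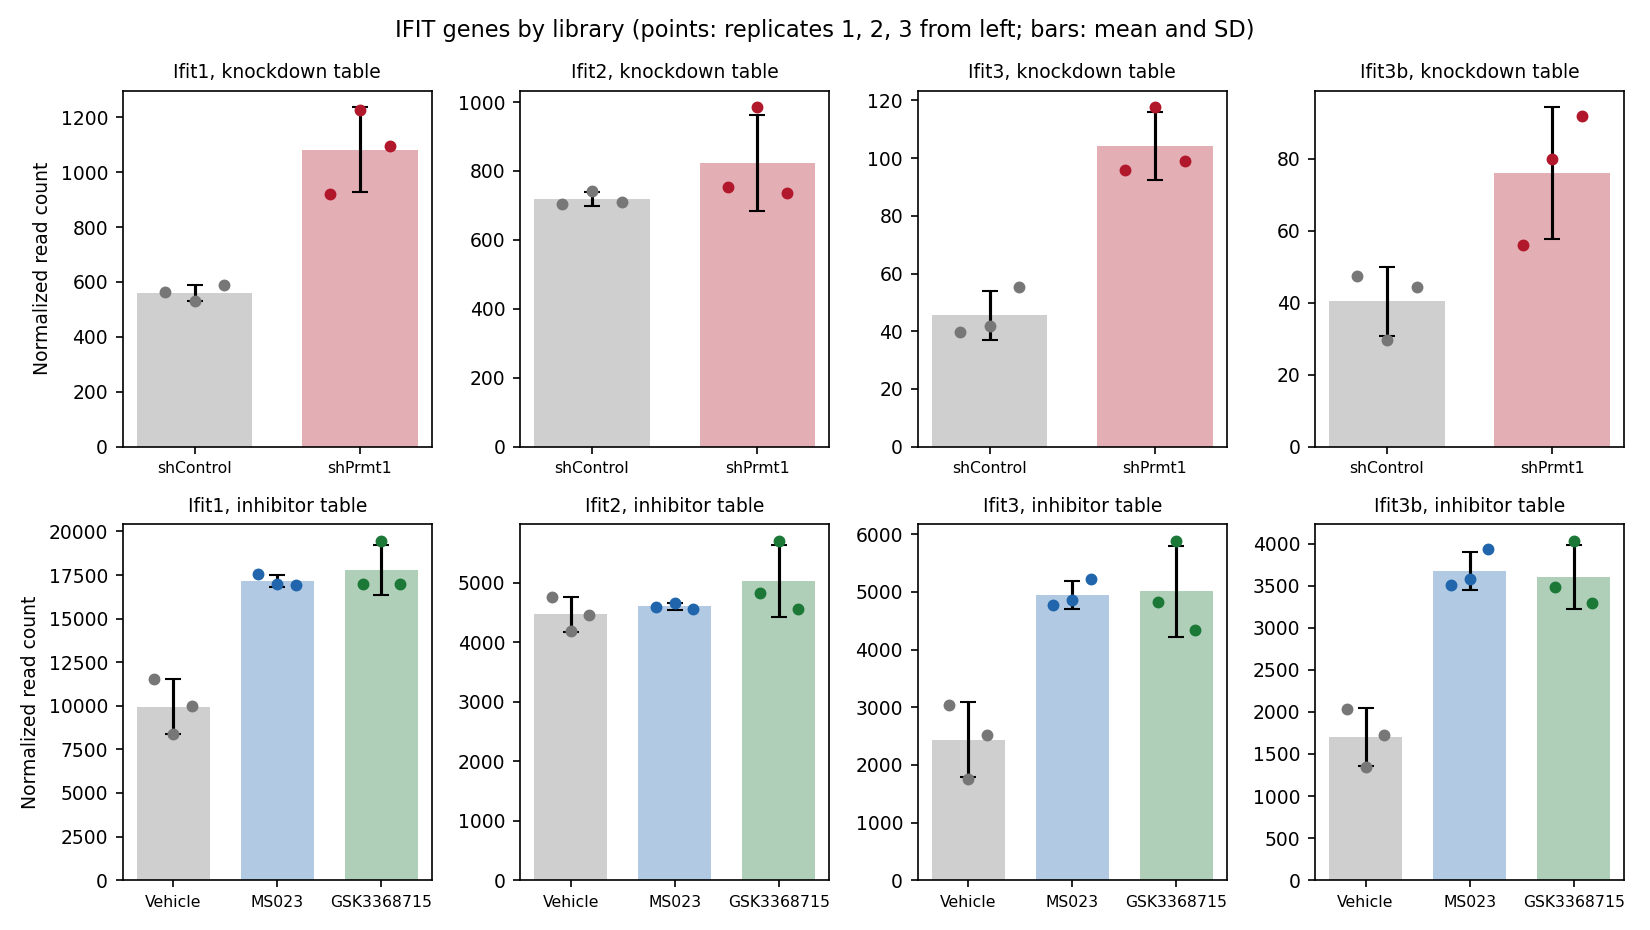
Normalized read count (vertical axis, from 0) of Ifit1, Ifit2, Ifit3 and Ifit3b in each library of the knockdown table (top row) and the inhibitor table (bottom row). Points are replicates 1, 2 and 3 from left to right, bars are group means and error bars are the SD. Ifit1 and Ifit3 of treated cells lie above all controls in both rows, as does Ifit3b, while the groups of Ifit2 overlap.

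In the inhibitor experiment Ifit1 was again higher in treated cells. It had 11526, 8382 and 9965 normalized counts in the vehicle libraries 1, 2 and 3, and 17533, 16982 and 16925 in the MS023 libraries. With GSK3368715 it had 17009, 19455 and 16959. All 6 treated libraries were above all 3 vehicle libraries, and vehicle 2 was the lowest of the 9. The log2 fold change was 0.80 for MS023 (0.58 to 1.02, adjusted p = 0.000349, limma) and 0.85 for GSK3368715 (0.63 to 1.07, adjusted p = 0.00103, limma). Both inhibitors were compared with the same 3 vehicle libraries, so these values are not independent of each other.

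Ifit3 had 3037, 1750 and 2518 normalized counts with vehicle and 4767, 4865 and 5229 with MS023. With GSK3368715 it had 4821, 5884 and 4338. No treated library came down to the highest vehicle library. The log2 fold changes of Ifit3 were 1.06 with MS023 (0.68 to 1.44, adjusted p = 0.00143, limma) and 1.07 with GSK3368715 (0.69 to 1.44, adjusted p = 0.00487, limma).

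Ifit3b had 2035, 1350 and 1727 normalized counts with vehicle and 3503, 3581 and 3934 with MS023. With GSK3368715 it had 3489, 4031 and 3300. The treated libraries were again all above the vehicle libraries. The log2 fold changes of Ifit3b were 1.13 with MS023 (0.84 to 1.41, adjusted p = 0.000233, limma) and 1.10 with GSK3368715 (0.81 to 1.38, adjusted p = 0.00103, limma).

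The sum of the copies was 5072, 3100 and 4245 normalized counts with vehicle, 8269, 8446 and 9163 with MS023 and 8310, 9916 and 7638 with GSK3368715. It rose by log2 fold changes of 1.09 (0.75 to 1.42, adjusted p = 0.000664, limma) and 1.08 (0.74 to 1.42, adjusted p = 0.00279, limma). The mean was 2.08-fold that of vehicle for either inhibitor.

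Ifit2 had 4753, 4180 and 4465 normalized counts with vehicle, 4586, 4660 and 4554 with MS023 and 4823, 5702 and 4558 with GSK3368715. The groups overlapped in both comparisons, and GSK3368715 2 was the single high library. The log2 fold change of Ifit2 was 0.04 with MS023 (-0.13 to 0.22, adjusted p = 0.717, limma) and 0.17 with GSK3368715 (-0.01 to 0.34, adjusted p = 0.221, limma). Without vehicle 2 the MS023 value was -0.002, so its sign rested on 1 library.

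Thus 3 of the 4 genes were called higher with MS023, where 13.7% of the 13014 genes tested were called higher, and 3 with GSK3368715, where 5.16% were. None was called lower in either comparison, where 14.1% and 4.47% of all genes were. The same 3 had groups that did not overlap, against 22.4% of all genes higher in that way for MS023 and 13.7% for GSK3368715. The median log2 fold changes of the 4 genes were 0.93 and 0.96, against 0.0028 and 0.00042 over all genes. Here too Ifit3 and Ifit3b do not count as independent genes.

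Of the vehicle libraries, vehicle 1 was the highest and vehicle 2 the lowest for all 4 genes. Of the GSK3368715 libraries, library 2 was the highest for all 4. In the other 3 groups no 1 library was the highest for all 4 genes. The spread between vehicle libraries was wider for Ifit3, with a coefficient of variation of 26.6%, than for Ifit2, with 6.41%. In the MS023 libraries these values were 4.92% and 1.19%.

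MS023 and GSK3368715 were both given at 6 µM for 48 hours and were compared directly for the 4 genes and the sum, with p-values adjusted over all genes. None of the 4 was called, where 0.515% of all genes were. GSK3368715 minus MS023 was 0.05 for Ifit1 (-0.17 to 0.27, adjusted p = 0.871, limma) and 0.12 for Ifit2 (-0.06 to 0.30, adjusted p = 0.566, limma). It was 0.01 for Ifit3 (-0.37 to 0.38), -0.03 for Ifit3b (-0.32 to 0.26) and -0.01 for the sum (-0.34 to 0.33), with adjusted p of 0.991, 0.944 and 0.987 in limma. Without 1 library or another the sign of Ifit1, Ifit3, Ifit3b and the sum turned over, within -0.11 to 0.11.

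**Figure D2:**
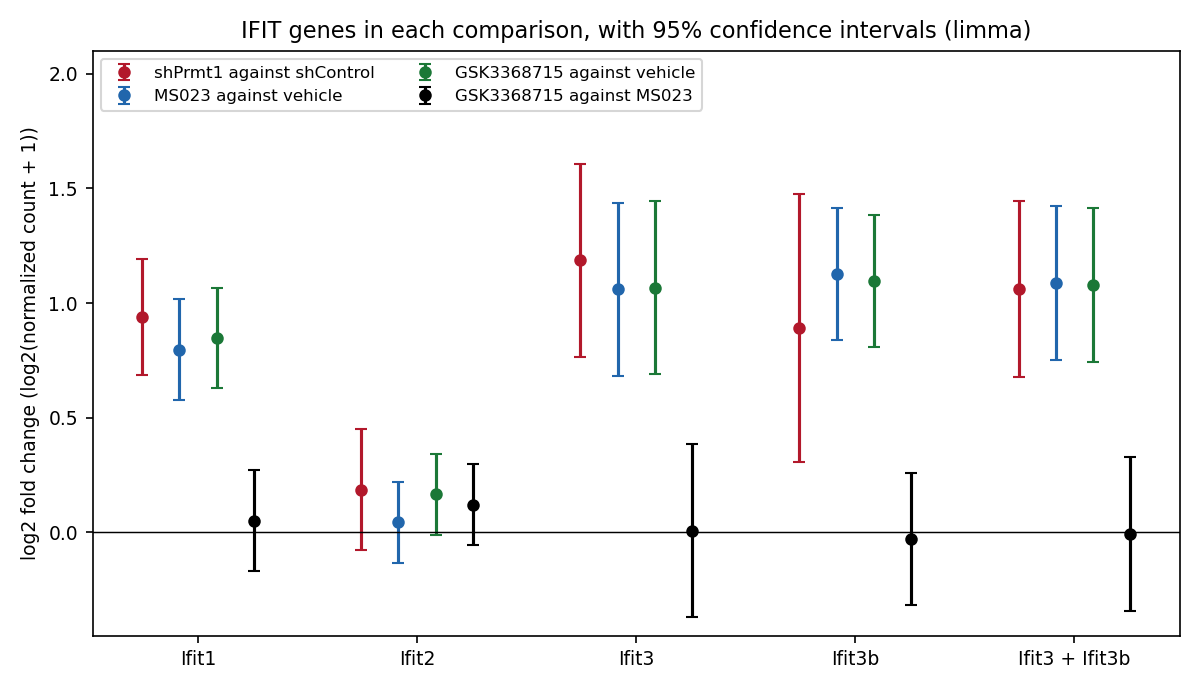
Log2 fold change on log2(normalized count + 1) (vertical axis) of each IFIT gene and of the Ifit3 + Ifit3b sum (horizontal axis) in 4 comparisons, with 95% confidence intervals from limma. Ifit1, Ifit3, Ifit3b and the sum lie between 0.80 and 1.19 in the 3 comparisons with controls, Ifit2 between 0.04 and 0.19, and GSK3368715 against MS023 near 0.

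Ratios between the genes were taken within each library, where library size cancels. The ratio of Ifit2 restates the fold changes above and is given as a description. Ifit2 stood at 8.53 ± 1.68 times the Ifit3 + Ifit3b sum in shControl and at 4.59 ± 0.64 times in shPrmt1 (SD, n = 3). It stood at 1.11 ± 0.21 times the sum with vehicle, 0.534 ± 0.032 with MS023 and 0.584 ± 0.011 with GSK3368715. The log2 ratio was lower by a mean of -0.89, -1.04 and -0.91 in the respective comparisons, with no overlap in any.

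Ifit1 kept closer to the sum. Its log2 ratio to the sum differed by -0.13 on knockdown (exact permutation p = 0.3), by -0.29 with MS023 (p = 0.1) and by -0.23 with GSK3368715 (p = 0.1). The permutation tests were two-sided, 3 against 3 cannot give p below 0.1, and adjusted over the 9 ratio tests these values were 0.45, 0.18 and 0.18. The groups overlapped on knockdown and not with either inhibitor. The share of Ifit3b in the sum averaged 46.8% in shControl and 41.8% in shPrmt1, and 41.5%, 42.6% and 41.9% with vehicle, MS023 and GSK3368715. The shares of treated and control libraries overlapped in each comparison (exact permutation p = 0.4, 0.4 and 0.8). With 3 against 3 libraries the test cannot show that the shares are equal.

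**Figure D3:**
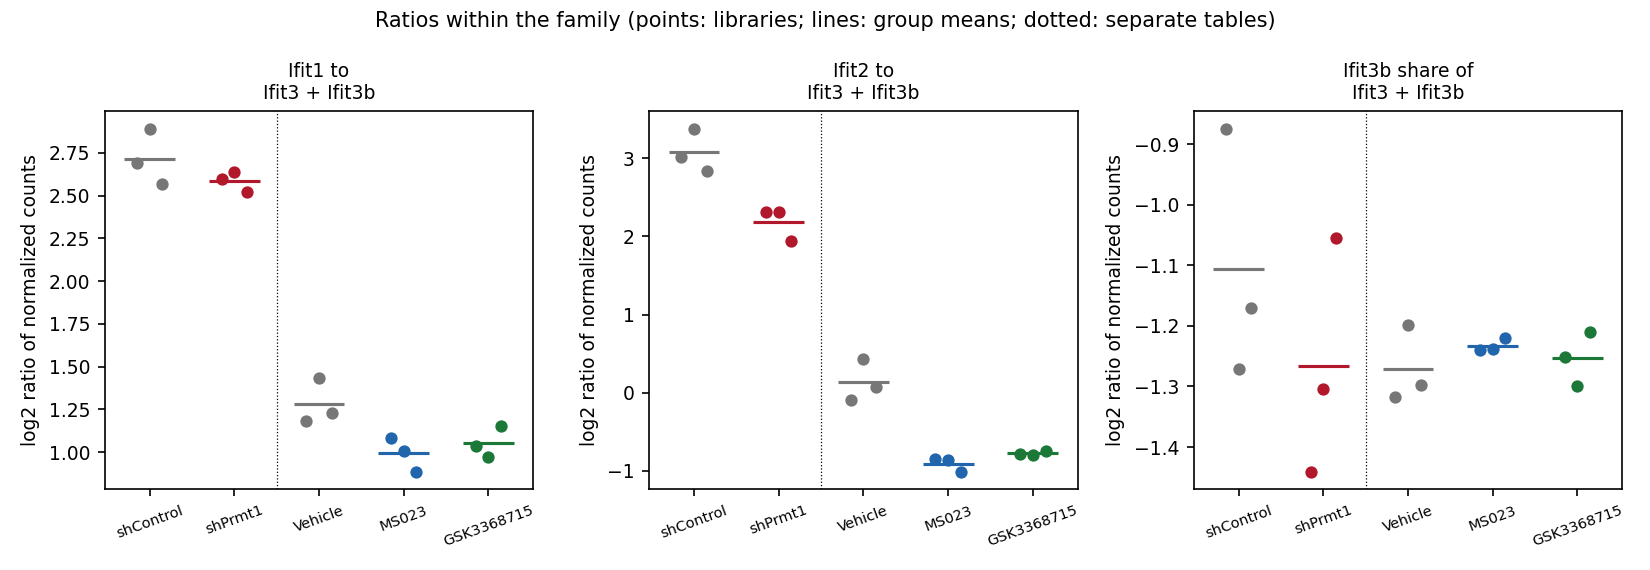
Log2 ratio of normalized counts (vertical axis) in each library for Ifit1 to the Ifit3 + Ifit3b sum, Ifit2 to that sum, and Ifit3b as a share of it. Points are libraries, lines are group means and the dotted line parts the separately normalized tables. The Ifit2 ratio is lower in every treated group than in its controls without overlap, whereas the Ifit3b share overlaps throughout.

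The starting levels of the 2 control groups were far apart. In RPM, reads scaled by each library's total to a common size, Ifit1 averaged 26.5 in shControl and 166 with vehicle, 6.27 times as much. Ifit2 averaged 34.0 and 74.4, or 2.19 times. The Ifit3 + Ifit3b sum averaged 4.06 and 69.0, or 17 times. For each of these the gap between control groups was larger than any change on treatment. The control groups come from separate experiments and tables that were normalized apart, so experiment and cells cannot be told apart and no test was made.

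Per kilobase of the longest transcript, the order of the genes also differed. In shControl, Ifit1 stood at 211 ± 11.3 normalized counts per kb and Ifit2 at 188 ± 5.24, well above Ifit3 at 26.1 ± 4.87 and Ifit3b at 20.2 ± 4.8. These last neighbours did not differ beyond their spread. With vehicle, Ifit1 led at 3749 ± 592 normalized counts per kb, then Ifit3 at 1395 ± 371, Ifit2 at 1170 ± 75 and Ifit3b at 852 ± 171. The spreads of Ifit3 and Ifit2 overlapped. With MS023 the order was Ifit1 (6456 ± 126), Ifit3 (2839 ± 140), Ifit3b (1836 ± 115) and Ifit2 (1205 ± 14.3), so that Ifit2 came last, and it was the same with GSK3368715.

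Ifit1bl1 and Ifit1bl2, the family genes on the opposite strand, were read far less. Ifit1bl1 had 2.64, 2.88 and 4.42 normalized counts in shControl and 10.3, 14.5 and 9.19 in shPrmt1, with no overlap. It missed the filter of 10 normalized counts in 3 libraries and was not in the main fit of that table. With vehicle it had 42.8, 31.4 and 41.0 normalized counts, with MS023 111, 114 and 105 and with GSK3368715 111, 126 and 77.3. It rose by log2 fold changes of 1.5 with MS023 (adjusted p = 0.000604, limma) and 1.41 with GSK3368715 (adjusted p = 0.00344, limma), with no overlap between groups. Of its 31-base words, 18.7% also occur in Ifit1bl2.

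Ifit1bl2 was at 0 in all 6 libraries of the knockdown table. In the inhibitor table it had 12.2, 84.2 and 78.4 normalized counts with vehicle, 63.1, 137 and 148 with MS023 and 20.6, 131 and 146 with GSK3368715. Replicate 1 was the lowest of its group all 3 times. Neither comparison passed the test, with log2 fold changes of 1.29 (-0.51 to 3.10) and 0.74 (-1.06 to 2.55). Leaving out 1 library gave 0.41 to 1.76 with MS023 and -0.14 to 1.64 with GSK3368715. With the replicate number as a block, the MS023 comparison passed (adjusted p = 0.0223, limma).

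Of 7 listed genes within 250 kb of the family that are not among the 4, 2 passed the filter in the knockdown table and 5 in the inhibitor table. Lipa, the lysosomal acid lipase gene just before Ifit2, rose in all 3 comparisons with controls, by log2 fold changes of 0.58 (adjusted p = 0.00393), 0.66 (adjusted p = 8.17e-05) and 0.43 (adjusted p = 0.00302, all limma). Fas, the death receptor gene, rose with MS023 by 1.03 (adjusted p = 0.0251, limma), a call lost without vehicle 2 or any 1 MS023 library (adjusted p 0.0563 to 0.0865) and with no filter on low values (adjusted p = 0.0609). With GSK3368715 it was 0.90 (adjusted p = 0.0838, limma). Pank1, at the other end, was not called.

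**Figure D4:**
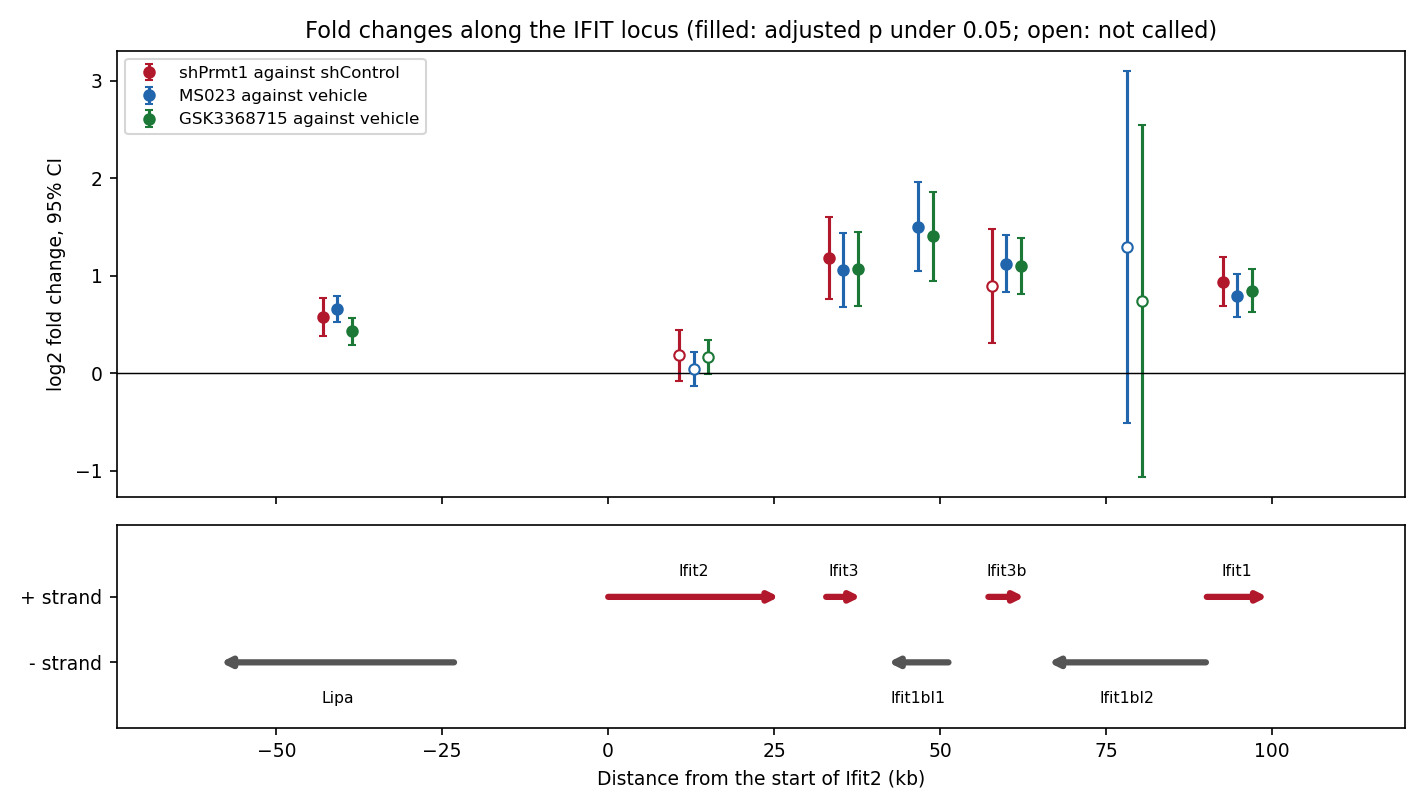
Top: log2 fold change with 95% confidence interval (vertical axis) of the tested genes around the family, placed at the middle of each gene. Bottom: the genes as arrows by strand, with distance from the start of Ifit2 in kb (horizontal axis) and the 4 IFIT genes in red. Ifit2, between the called Lipa and Ifit3, is the member whose 3 points lie closest to 0, and Ifit1bl2 has intervals that span 0.

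The genes that could turn the family on were followed through a list of 41 ligands, receptors, kinases, transcription factors and feedback inhibitors of the interferon pathway. Of the 21 interferon ligands, 20 were at 0 in all 6 knockdown-table libraries. Ifnb1, which encodes interferon beta, had 1 read in the shControl libraries together and 3 in the shPrmt1 libraries. In the libraries of the inhibitor experiment, 16 ligands were at 0 throughout. Ifnb1 averaged 9.23 ± 1.53 normalized counts with vehicle, 14.3 ± 1.49 with MS023 and 17.6 ± 7.36 with GSK3368715. Its log2 fold changes of 0.59 (-0.21 to 1.39) and 0.80 (0.002 to 1.60) did not pass the test (adjusted p = 0.258 and 0.191, limma). Both treated groups lay above vehicle without overlap, as did 22.4% of all genes with MS023 and 13.7% with GSK3368715. These levels of Ifnb1 are close to the filter of 10 normalized counts. No other ligand exceeded 10 reads in total.

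Of the 19 listed genes tested on knockdown, 5 were called higher and none lower, against 7.5% and 7.17% of all genes tested. Irf7, a factor for interferon genes that is itself interferon-induced, rose by a log2 fold change of 1.80 (adjusted p = 5.07e-05, limma). Usp18, the protease that shuts off signalling at the receptor, rose by 1.63. Irf9 and Stat2, which encode the ISRE-binding factors named above, rose by 0.64 and 0.60. The kinase Jak1 rose by 0.30 (adjusted p = 0.0384, limma), a call lost without any 1 of the shControl libraries or without shPrmt1 3 (adjusted p 0.0628 to 0.152), and with no variance trend (adjusted p = 0.0825).

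With MS023, 8 of 20 tested genes were called higher and none lower, and with GSK3368715, 5 of 20 and none. Over all genes these shares were 13.7% and 14.1% with MS023 and 5.16% and 4.47% with GSK3368715. Irf7 rose by 0.93 and 0.68, Stat2 by 0.66 and 0.59, Irf5 by 0.70 and 0.87, Irf1 by 0.48 and 0.50 and Irf2 by 0.20 and 0.29. The call of Irf7 with GSK3368715 was lost without vehicle 3 (adjusted p = 0.0546) or GSK3368715 2 (adjusted p = 0.0572, limma), with no variance trend (adjusted p = 0.0517) and with only the compared groups in the fit (adjusted p = 0.0527). Usp18 was called with MS023 at 0.45 (adjusted p = 0.0414, limma), a call that leaving out any of 5 libraries undid (adjusted p 0.082 to 0.111), vehicle 1 being the exception. It was also lost with no filter, no variance trend, the replicate block, edgeR or only the compared groups in the fit (adjusted p 0.0507 to 0.0914). The MS023 calls of Irf2 and Irf5 were lost without MS023 3 (adjusted p = 0.0563 and 0.0582), and that of Irf2 also without MS023 2 (adjusted p = 0.0707, limma). Usp18 was not called with GSK3368715, at 0.51 (adjusted p = 0.054, limma). Irf9 had 0.27 and 0.26 and was not called (adjusted p = 0.0606 and 0.107, limma). Il10rb and Tyk2 were the other genes called with MS023, at 0.39 and 0.28.

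The 5 tested interferon receptor genes included 1 call in all, Il10rb with MS023. The median log2 fold change of the listed genes was 0.14 on knockdown, 0.18 with MS023 and 0.19 with GSK3368715, against 0.92, 0.93 and 0.96 for the IFIT genes. No listed gene was called between GSK3368715 and MS023.

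A second list held 10 genes that IFIT proteins are known to meet or that shape their RNA targets, and most of these were not called. On knockdown 0 were called higher and 1 lower, against 7.5% and 7.17% of all genes. With MS023 it was 1 and 1, against 13.7% and 14.1%, and with GSK3368715 1 and 1, against 5.16% and 4.47%. By these counts the list did not stand apart from all genes. Mavs, the mitochondrial adaptor of the RNA sensors, fell by log2 0.35 on knockdown (adjusted p = 0.0137), by 0.28 with MS023 (adjusted p = 0.00457) and by 0.27 with GSK3368715 (adjusted p = 0.0157, all limma). The knockdown call was lost without shControl 1, shControl 3 or shPrmt1 3 and the GSK3368715 call without vehicle 3 (adjusted p 0.0503 to 0.0747). Sting1, the adaptor of the DNA sensor cGAS, rose by 0.36 with MS023 (adjusted p = 0.00195, limma) and by 0.24 with GSK3368715 (adjusted p = 0.0355, limma). The latter was lost without vehicle 1, vehicle 3, GSK3368715 1 or GSK3368715 3 (adjusted p 0.0555 to 0.119), with the replicate block (adjusted p = 0.0655) and with only the compared groups in the fit (adjusted p = 0.0848). On knockdown Sting1 had 0.29 (adjusted p = 0.131, limma). The cap methyltransferases Cmtr1, Cmtr2 and Rnmt, the RNA phosphatase Dusp11 and the translation factors Eif3c, Eif3e and Eif4e were called in none of the 4 comparisons.

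**Figure D5:**
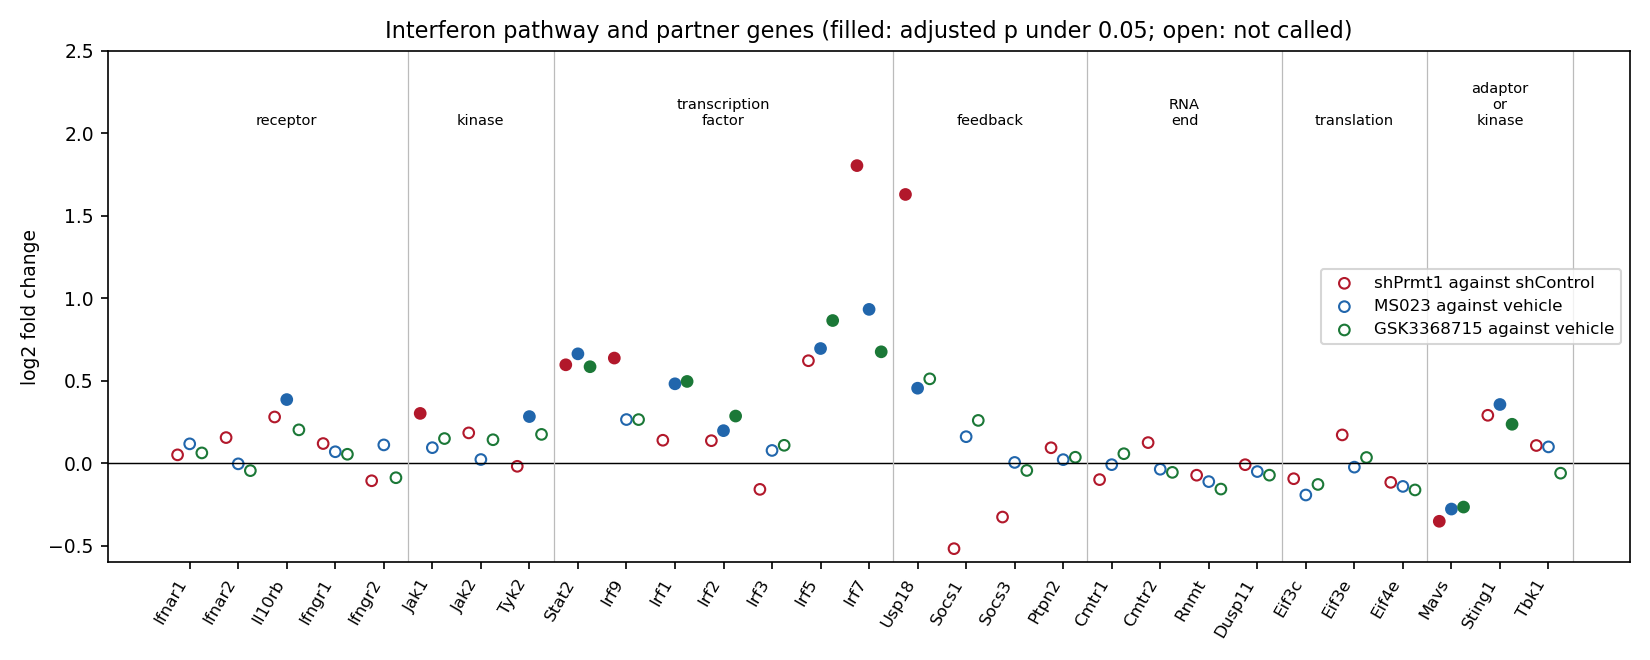
Log2 fold change (vertical axis) of the tested interferon pathway genes other than Ifnb1, and of IFIT partner genes (horizontal axis), ordered by role. Filled points passed adjusted p of 0.05 in limma and open points did not. Irf7 and Usp18 on knockdown are the highest points, at 1.80 and 1.63, and Mavs is the gene called lower in all 3 comparisons.

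To place the genes among all others, each gene was written as its log2 differences from its own control mean in all 15 libraries, and genes were ranked by the root mean square difference between profiles. This is a description over libraries that share their table and controls. Of 10173 genes ranked, the nearest to Ifit1 were Ifi47, an interferon-inducible GTPase gene, at 0.11 log2 units, then AW011738, Vwa5a, Sfxn4 and Mipol1 at 0.17 each. Ifit3 came 33rd, Ifit3b 45th and Ifit2 1579th. Nearest to the Ifit3 + Ifit3b sum was Ifit1 at 0.20, followed by Parp12 at 0.20, Gbp3 at 0.24 and Txnip and the chemokine gene Cxcl10 at 0.25.

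The profile of Ifit2 was nearest to those of Nusap1, Zfp869, Spryd7, Pnpt1 and Stambp, at 0.06 each. These 5 genes had log2 fold changes of 0.15 to 0.25 on knockdown and of -0.02 to 0.14 with the inhibitors. Such small changes follow from choosing them by closeness to Ifit2. From Ifit2, the other IFIT genes ranked 9852nd (Ifit1), 10039th (Ifit3b) and 10054th (Ifit3), near the far end of the list. These ranks restate their larger fold changes.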

How the data were processed

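Gene expression was measured by paired-end RNA-sequencing of 15 CT26 libraries. As deposited, the values are a signal that the authors made from gene counts: per the submitters' processing notes and the study's methods, reads were assigned to mm10 transcripts with Salmon (version 1.4.0) and counts were divided by size factors of DESeq2, separately in the knockdown table of 6 libraries and the inhibitor table of 9. The annotation release used upstream is not given in the sources used here. In every library 100% of values were whole multiples of 1 read (tolerance 0.01), which gave the read totals. Counting error alone follows from these depths. For genes that share sequence, the whole numbers of reads rest on the quantifier's estimated split and are not direct counts. Tables of the authors' own fold changes and p-values were not used.

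Normalized counts were tested as log2(value + 1) with limma (3.58.1, lmFit and eBayes with trend, R 4.3.3), two-sided, keeping genes that reached 10 normalized counts in 3 or more of the fitted libraries, with Benjamini-Hochberg adjustment over all genes and a threshold of 0.05. The knockdown fit held 6 libraries and the inhibitor fit 9, which share 1 estimate of the spread. For the sum, the rows of Ifit3 and Ifit3b were replaced by their sum and the whole table was fitted again. Ratios were tested by exact permutation over samples. Profiles were limited to genes averaging 50 normalized counts or more.

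Transcripts, coordinates and lengths are from GENCODE M21, which holds 34372 of the 34432 listed IDs. Promoters are from RefSeq (GRCm38.p6), and coding sequences were aligned with Biopython (1.88). Alternatives were edgeR (4.0.16) and DESeq2 (1.42.0) on the recovered reads, other pseudocounts, filters and scalings, no trend, a replicate block and leaving out each library.

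The text names the 4 family genes, 2 further family genes, Prmt1, called genes of the interferon and partner lists, the locus neighbours and the 5 nearest profiles of Ifit1, Ifit2 and the sum. One gene of the interferon list is not reported here and is in none of its counts. Members and lists were chosen with earlier results of these data known.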

Additional observations from a re-analysis of the deposited data

How the results depend on the processing

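The calls of Ifit1, Ifit3 and the Ifit3 + Ifit3b sum in the 3 comparisons with controls, and those of Ifit3b with either inhibitor, were made under each of the 16 alternatives for knockdown and 17 for each inhibitor, and Ifit2 was called under none of them. Ifit3b on knockdown, at adjusted p = 0.0511, passed under 6 of 16 alternatives (adjusted p 0.0251 to 0.138 over all 16): a pseudocount of 5 (log2 fold change 0.83), the same total in every library (0.92), the replicate block (0.89), edgeR (0.93), DESeq2 (0.92) and without shPrmt1 1 (1.09). Adjusted p there ran from 0.0251 to 0.0482. Leaving out 1 library at a time, Ifit2 with MS023 ran from -0.0020 to 0.091 and Ifit1bl2 with GSK3368715 from -0.14 to 1.64. Between GSK3368715 and MS023 the same ranges were -0.014 to 0.086 for Ifit1, -0.11 to 0.11 for Ifit3, -0.11 to 0.032 for Ifit3b and -0.11 to 0.075 for the sum. Ifit3 in that comparison was -0.00035 with the same upper quartile in every library and -0.013 with the same total. The log2 share of Ifit3b with GSK3368715 ran from -0.0054 to 0.054. Leaving out 1 library gave 5 to 9 called genes of the interferon list with MS023, against 8 with all libraries, and the 5 came without MS023 3. Of the 10 partner genes, it gave 0 to 3 called on knockdown and 0 to 2 with GSK3368715. Counts over all genes under the same leave-outs are given below.

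The main fits did not pair libraries by replicate number, and whether the numbers mark pairs was not tested. Same-numbered shPrmt1 and shControl libraries correlated at 0.061, 0.12 and 0.081 in their deviations from group means. Against vehicle, same-numbered libraries correlated at -0.042, 0.046 and -0.073 for MS023 and at 0.030, -0.070 and -0.10 for GSK3368715. Each shPrmt1 library correlated best with its own number, as a hint from the data only. With the number as a block, genes called on knockdown went from 1684 to 2671, those between GSK3368715 and MS023 from 67 to 4, and Ifit1bl2 with MS023 passed (1.29, adjusted p = 0.0223, against 0.0223 to 0.701 over its 17 alternatives). The MS023 call of Usp18 and the GSK3368715 call of Sting1 were lost. Under the block, 3 of the 4 IFIT genes were called on knockdown, against 2 without it.

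Counts over all genes moved more than those of the family. Leaving out 1 library gave 652 to 2472 calls on knockdown, 2409 to 3409 with MS023, 586 to 1274 with GSK3368715 and 2 to 11 between the inhibitors. With only the compared groups in the fit, GSK3368715 gave 597. Between the inhibitors, no filter gave 38, no trend 8 and DESeq2 365. The cause of these shifts was not tested. In the knockdown table, reads were few for Ifit3 and Ifit3b, whose shControl libraries held 153 and 135 in all as the quantifier split them. Ifit1bl1 had 11 there and was left out of the main fit by the filter.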
